A study of Homo sapiens with 12 samples.

Results

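Messenger RNAs recovered with the m6A reader protein YTHDF2 from manganese-treated astrocytoma cells were set against input RNA kept from the lysate of such cells. The comparison takes 6 of the 12 libraries of the study, namely the 3 immunoprecipitation (IP) libraries and the 3 input libraries of cells labelled as given 100 µM manganese, and it covers every gene that could be tested. The cells were U251-MG, a human astrocytoma line that the labels call astrocytes, kept in medium with 2% serum, and manganese was added as manganese chloride. The other 6 libraries are the IP and input of cells without manganese, 3 each, called control below. Per the labels, the IP fraction was pulled down from cleared lysate with an antibody against YTHDF2, and the input was a kept share of 2.5% of the lysate that was purified for poly(A) RNA. A pull-down with a control antibody is not among the labels, so recovery that does not depend on YTHDF2 is contained in every enrichment given here. They give neither the length of the exposure nor whether replicates were separate cultures, so the p-values reflect the spread among the libraries alone, which may be technical.

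YTHDF2 is a cytoplasmic protein whose YTH domain binds N6-methyladenosine (m6A), the most common internal modification of mRNA, which a nuclear methyltransferase deposits and demethylases remove. Bound mRNAs are handed to the CCR4-NOT deadenylase complex and are shortened and degraded, and transcripts of transcription factors and other regulators are among its known clients. m6A is found above all near stop codons and in long internal exons, so transcripts differ in how many sites they can carry. The series' title names the kinase MAP2K4 (also called SEK1), its target kinase JNK and the transcription factor JUN as the pathway under study.

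The 6 manganese libraries held 22602890 to 28425552 estimated gene counts, and the 6 control libraries 16683984 to 25872265. PCGF6 alone held 34.3% to 41.8% of these counts. Its share was 35.7% to 36.4% in the manganese inputs and 40.1% to 41.8% in the manganese IPs. In control cells it was 34.3% to 34.6% in the inputs and 35.1% to 39.3% in the IPs. The aligned share of fragments was 56.88% for control IP 3 and 83.7% to 87.12% for the other 11 libraries. Libraries of the same manganese group had a correlation (r, over log2 CPM of genes, with CPM meaning counts scaled by the normalised library total; genes do not count as replicates) of 0.960 to 0.990. Manganese IP 3 was the least like its partners, and control IP 3 (r of 0.922 and 0.934) the least like any. Of 20 astrocyte and glioma markers 19 could be tested, with a summed level of 8290 to 9035 CPM in the manganese inputs and 9796 to 9898 in the IPs, while AQP4, the astrocyte water channel, was at 0. Neuron markers summed to 13.1 to 23.7 CPM in the inputs and 33.8 to 45.9 in the IPs, with 3 of 12 at 0 (GAD2, RBFOX3 and STMN2). Microglia markers summed to 37.7 to 41.2 and 32.1 to 37.0 CPM, with 7 of 12 at 0, and epithelial markers to 45.9 to 61.1 and 48.1 to 59.9, with 3 of 10 at 0. These sums are RNA levels in bulk libraries of a cell line, and they do not count cells of a type.

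Of 14804 genes tested, 2187 had higher levels in the manganese IP than the input (14.8%) and 2608 were lower (17.6%), by edgeR's quasi-likelihood test with a Benjamini-Hochberg adjusted p under 0.05. All log2 values below are IP minus input. The median over all genes was -0.03, with quartiles at -0.91 and 0.76. By at least 1 on the log2 scale, 1419 genes were higher and 1991 lower. In 2174 of the higher genes and 2582 of the lower genes the 3 IP libraries did not overlap the 3 inputs, against 24.8% and 29.2% of all tested genes whose libraries were separate in that direction. Clone-type or pseudogene names made up 252 of the higher and 151 of the lower genes. With total counts as the scaling, the median of all genes moved to -0.185 and the split to 1745 higher and 3056 lower (36.3% of the passing genes higher, against 45.6%). The limma test on log2(TPM + 1) gave 1533 higher and 3077 lower (33.3%). With scaling without PCGF6 the counts were 2415 higher and 2367 lower (50.5%). The spread was estimated over all 12 libraries, and without control IP 3 the counts rose to 2671 and 3293. Unless stated, each gene named below passed, and its 3 IP libraries were all on the same side of its 3 inputs. Genes were chosen for naming on that separation, so it adds no further evidence where it is given for a gene. The background for every gene list below is 14.8% of all genes higher and 17.6% lower. The lists were chosen with earlier results of these data known, so an excess over that background is no independent evidence.

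**Figure D1:**
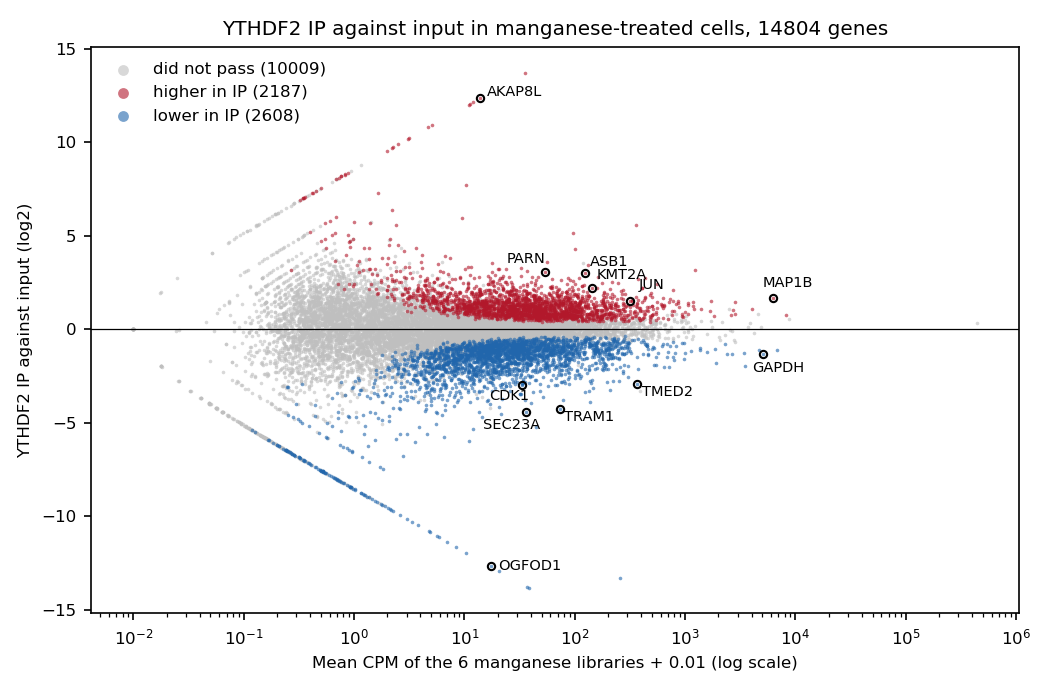
Each point is 1 of the 14804 tested genes, with its mean CPM over the 6 manganese libraries on a log axis and the log2 difference between YTHDF2 IP and input on the vertical axis. Red points passed as higher in the IP (2187) and blue points as lower (2608); the outer lines of points hold genes at 0 in all libraries of a fraction, such as OGFOD1 and AKAP8L, whose fitted values are no estimate of size.

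The largest log2 values below are of genes with at least 5 mean CPM, separate libraries and a plain symbol, detected in both fractions. Over all tested genes the values ran from -13.8 to 13.7. The higher mRNAs named here were of modest level in the input. ASB1 (ENSG00000065802), a substrate adaptor of a cullin ubiquitin ligase, had 28.2, 27.6 and 27.1 CPM in manganese input 1 to 3 and 211, 223 and 231 CPM in manganese IP 1 to 3. Its IP libraries all lay far above its inputs, a log2 value of 3.00 ± 0.22 (edgeR, adjusted p = 2.58e-06). ASF1B (ENSG00000105011), a chaperone of histones H3 and H4, had 36.8, 44.9 and 41.3 CPM in the inputs and 262, 273 and 315 in the IPs, and was higher by 2.79 ± 0.22 (edgeR, adjusted p = 4.06e-06). GIGYF1 (ENSG00000146830), a partner of the cap-binding repressor 4EHP, had 6.67, 8.78 and 7.63 CPM in the inputs and 49.5, 71.7 and 75.4 in the IPs. It was higher by 3.09 ± 0.24 (edgeR, adjusted p = 3.56e-06), with IP 1 the lowest of the IP libraries. PARN (ENSG00000140694), a poly(A)-specific ribonuclease, had 8.41, 12.3 and 14.3 CPM in the inputs and 87.9, 88.3 and 113 in the IPs, a log2 value of 3.04 ± 0.32. JPT2, TMEM81, TLNRD1 and the homeobox gene HOXA5 had log2 values of 3.21, 3.23, 2.83 and 2.84. NBPF20 (3.42) and NUTM2D (3.54) belong to families of near-identical copies among which reads can be split, so their values are uncertain.

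Under the same filters, the largest values on the lower side reached further from 0. SEC23A (ENSG00000100934), a subunit of the COPII coat that buds vesicles from the endoplasmic reticulum (ER), had 71.0, 76.6 and 61.9 CPM in manganese input 1 to 3 and 3.75, 4.36 and 1.49 CPM in manganese IP 1 to 3. No IP library came near an input library, and the log2 value was -4.45 ± 0.47 (edgeR, adjusted p = 2.27e-05). TRAM1 (ENSG00000067167), which sits at the ER translocon, had 134, 127 and 156 CPM in the inputs and 7.16, 6.37 and 7.68 in the IPs, a log2 value of -4.29 ± 0.32 (edgeR, adjusted p = 2.62e-06). ZDHHC20 (ENSG00000180776), a protein palmitoyltransferase, had 26.9, 24.5 and 25.8 CPM in the inputs and 1.40, 1.05 and 1.08 in the IPs, a value of -4.44 ± 0.64. MANEA, a Golgi mannosidase, had 19.9, 20.2 and 24.8 CPM in the inputs and 0.165, 0.862 and 0 in the IPs. Every IP library of MANEA was under 1 CPM, and the value was -5.99 ± 0.83. TCP11L2 (-4.68) and the kinase gene STK26 (-4.49) were lower by like amounts, with STK26 at 0 in IP 2 and IP 3. MCU, the pore of the mitochondrial calcium uniporter, was lower at -4.61 ± 1.59 (edgeR, adjusted p = 0.0399), with 15.6, 13.7 and 6.57 CPM in the inputs and 0, 1.48 and 0 in the IPs. This call was lost with DESeq2 (adjusted p = 0.0716) and on leaving out manganese input 1, 2 or 3 or IP 1 or 3 or control input 2 or 3 (0.0545 to 0.118, edgeR). NOMO3 (-5.25) and GPR89B (-5.78) have near-identical copies in the genome. NOMO3 lost its call without manganese IP 1 or 3 (edgeR, adjusted p of 0.0567 and 0.0607), and GPR89B without manganese input 1 or 2 or IP 2 or 3 (0.0529 to 0.0950) or with the length correction described below (0.158).

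Among genes of high input CPM, which is not scaled by length, several structural mRNAs were higher in the IP. MAP1B (ENSG00000131711), a microtubule-associated protein of neural cells, had 3012, 2879.6 and 3169 CPM in manganese input 1 to 3 and 9003, 10150 and 9658 CPM in manganese IP 1 to 3. That is a log2 value of 1.67 ± 0.19 (edgeR, adjusted p = 3.35e-05), with the IP libraries clear of the inputs. NES, the neural progenitor intermediate filament nestin, was at 1486 ± 27.9 CPM in the input and 4131 ± 191 in the IP (SD, n = 3), higher by 1.47 ± 0.17. The mRNAs of the beta-tubulin TUBB (0.81), of annexin ANXA2 (1.04), of the chaperone HSP90AA1 (1.09) and of the fatty acid desaturase SCD (0.75) were higher by smaller amounts. ACTB, beta-actin, was higher by 0.77 ± 0.27 (edgeR, adjusted p = 0.0422). Its call was lost on leaving out any manganese input (0.0519 to 0.0908, edgeR), manganese IP 2 or 3 (0.0623 and 0.0759), any control input or control IP 2 (0.0527 to 0.0656), and with limma on TPM (0.0734). SPARC, a secreted matrix glycoprotein, was higher by 0.99 ± 0.32 (edgeR, adjusted p = 0.0298), but with an offset for the effective transcript length of each gene in each library (called the length correction below) it was lower (-0.62, edgeR, adjusted p = 0.0299), and on log2(TPM + 1) as well (-0.91, limma, adjusted p = 0.00245). Without manganese input 1 or 2 or IP 3 it no longer passed (edgeR, adjusted p of 0.0605, 0.0519 and 0.0547).

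Of the 8 genes of highest input CPM that were lower in the IP, 6 are encoded by mitochondrial DNA. MT-CO1, a cytochrome oxidase subunit encoded by mitochondrial DNA, had 10526, 8711 and 9000.4 CPM in manganese input 1 to 3 and 5181, 3907 and 3841 CPM in manganese IP 1 to 3. Every IP library was below every input, a value of -1.13 ± 0.28. MT-CO2 (-1.96), MT-CO3 (-1.79), MT-CYB (-1.29), MT-ND2 (-1.32) and MT-ND4 (-1.11) were lower too. The MT-ND4 call was lost without manganese input 1, IP 2 or IP 3 (edgeR, adjusted p of 0.0632, 0.0782 and 0.0728). GAPDH (ENSG00000111640), the glycolytic dehydrogenase, had 7191, 7482 and 6868 CPM in the inputs and 3171, 2747 and 2736 in the IPs, a value of -1.32 ± 0.18. B2M, the light chain of class I histocompatibility molecules, was lower at -0.78 ± 0.25 (edgeR, adjusted p = 0.0284), a call that ended without manganese input 3, IP 1 or IP 2 (0.0699, 0.05004 and 0.0611).

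In the JNK pathway the shares were near those of all genes. Of 27 tested genes 5 were higher in the manganese IP (18.5% against 14.8%) and 4 lower (14.8% against 17.6%). The median was 0.26 (-0.01 with limma on TPM). The lower count was 2 without manganese input 1 or 2 and 9 without control IP 3. JUN (ENSG00000177606), a bZIP factor that is a substrate of JNK, had 176, 164 and 150.1 CPM in manganese input 1 to 3 and 444, 465 and 502 CPM in manganese IP 1 to 3. All 3 IP libraries exceeded all inputs, by 1.52 ± 0.18 on the log2 scale (edgeR, adjusted p = 4.92e-05). MAP2K4 (ENSG00000065559), the kinase that activates JNK, had 77.8, 79.1 and 66.1 CPM in manganese input 1 to 3 and 109, 96.8 and 66.3 CPM in manganese IP 1 to 3. IP 3 fell within the range of the inputs while IP 1 and IP 2 lay above it, and the value of 0.29 ± 0.18 did not pass (edgeR, adjusted p = 0.243); without manganese IP 3 it was 0.51 and passed (0.0278). MAPK8, which is JNK1, had 19.8, 19.2 and 27.6 CPM in the inputs and 34.4, 24.96 and 24.1 in the IPs, groups that overlapped and a value that did not pass (0.33 ± 0.21, edgeR, adjusted p = 0.254). MAPK9, which is JNK2, was lower at -0.81 ± 0.21 (edgeR, adjusted p = 0.00923), lost without manganese input 1 or 2 (0.0696 and 0.0547). Of the kinases upstream, MAP3K11 had 18.3, 18.5 and 9.76 CPM in the inputs and 52.3, 56.1 and 60.2 in the IPs and was higher by 1.86 ± 0.26. MAP3K5, the stress kinase ASK1, had 15.7, 12.9 and 13.8 CPM in the inputs and 3.83, 3.497 and 2.85 in the IPs and was lower at -2.06 ± 0.27.

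Of 23 tested m6A writers, erasers and readers, 7 were higher in the IP (30.4% against 14.8% of all genes) and 6 lower (26.1% against 17.6%). The higher count was 4 with limma on TPM. The median was 0.14, but -0.02 with total counts and -0.19 with limma on TPM. Among the readers, YTHDF1 (ENSG00000149658), the paralog of YTHDF2, had 33.6, 36.0 and 32.3 CPM in the inputs and 115, 117 and 118 in the IPs, higher by 1.78 ± 0.19 (edgeR, adjusted p = 2.52e-05). YTHDF2's own mRNA (ENSG00000198492) had 60.9, 60.1 and 62.8 CPM in the inputs and 68.4, 72.4 and 61.03 in the IPs. IP 3 lay among the inputs and the value of 0.14 ± 0.15 did not pass (edgeR, adjusted p = 0.559), with a sign that turned with total counts (-0.02) and on log2(TPM + 1) (-0.06). FMR1, an RNA-binding repressor of translation that can read m6A, was lower at -1.47 ± 0.23. Of the erasers, the mRNA of the demethylase FTO (ENSG00000140718) had 124, 114 and 128 CPM in the inputs and 43.1, 23.5 and 14.5 in the IPs, lower at -2.17 ± 0.32 (edgeR, adjusted p = 0.000233), and that of the demethylase ALKBH5 was higher by 0.59 ± 0.14. ZC3H13, a cofactor of the methyltransferase, was higher by 1.39 ± 0.24, a call lost with limma on TPM (0.0970).

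For mRNAs of the deadenylation and decay machinery the shares were near those of all genes, with 7 of 41 tested higher (17.1% against 14.8%), 8 lower (19.5% against 17.6%; 13 genes without control IP 3) and a median of -0.29. TNKS1BP1, a protein that binds CCR4-NOT, had 153, 149 and 139.9 CPM in the inputs and 578, 697 and 746 in the IPs, higher by 2.20 ± 0.19. Its groups lay far apart. CNOT7, a catalytic deadenylase of CCR4-NOT, was lower at -1.43 ± 0.24, and DDX6, a helicase of decapping, at -1.54 ± 0.27, with 310.2, 300.4 and 337 CPM in the inputs and 108, 121 and 95.2 in the IPs. Of 34 tested mRNAs that carry m6A or are bound by YTHDF2 in other cells, 11 were higher (32.4%) and 3 lower (8.82%), with a median of 0.23. MAT2A, which makes the methyl donor S-adenosylmethionine and carries m6A in its hairpins in other cells, had 146, 144 and 156 CPM in the inputs and 401, 399.6 and 385 in the IPs, higher by 1.41 ± 0.16. CCND1, cyclin D1, was higher by 1.55 ± 0.16, but at 0.42 did not pass with the length correction (edgeR, adjusted p = 0.317).

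**Figure D2:**
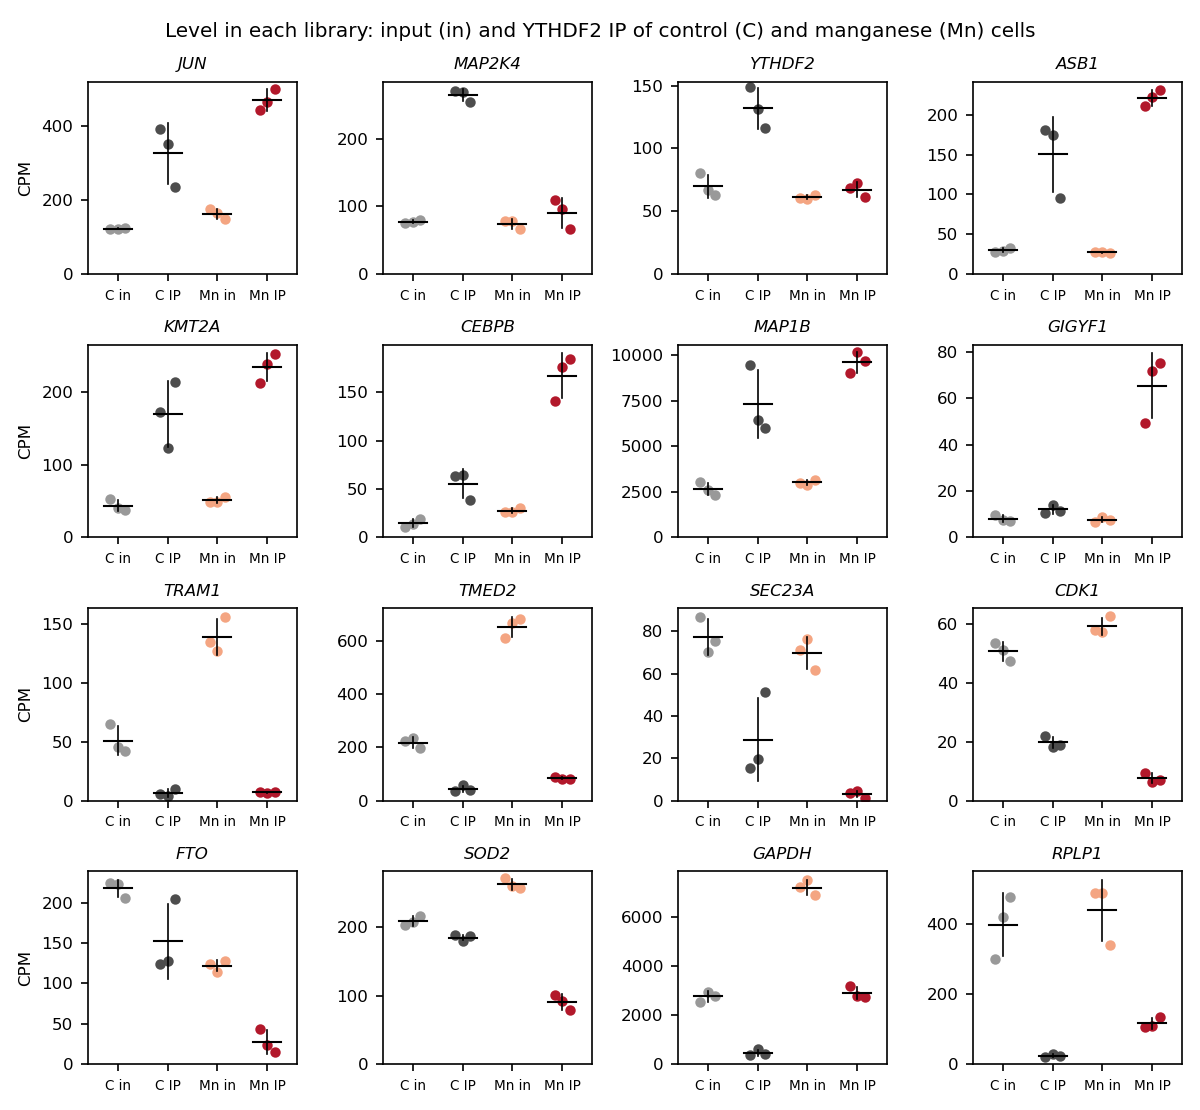
Points are single libraries in CPM on linear axes from 0, horizontal bars the mean and vertical bars the SD of 3 libraries, for control input (C in), control IP (C IP), manganese input (Mn in) and manganese IP (Mn IP). In manganese cells JUN, ASB1, KMT2A, CEBPB, MAP1B and GIGYF1 were higher in the IP, TRAM1 to RPLP1 in the lower rows were lower, and the IP of MAP2K4 and YTHDF2 overlapped the input in 1 library each.

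Transcription factor and chromatin regulator mRNAs had more higher than lower members, where 14.8% of all genes were higher and 17.6% lower. The list of immediate-early and bZIP factors also holds helix-loop-helix genes such as BHLHE40, ID2 and HEY1. Of its 42 tested genes, 18 were higher (42.9%) and 3 lower (7.14%), with a median of 0.47. CEBPB (ENSG00000172216), a bZIP factor of stress and inflammation, had 26.3, 26.4 and 30.2 CPM in the inputs and 141, 176 and 184 in the IPs, higher by 2.60 ± 0.24 (edgeR, adjusted p = 1.16e-05). BHLHE40, a repressor of the circadian clock, had 209.7, 222 and 225 CPM in the inputs and 593, 602 and 607 in the IPs, higher by 1.45 ± 0.14. MAFG, a small MAF protein that pairs with NRF2, was higher by 1.72 ± 0.20. The 3 lower members were ATF3 (-1.56 ± 0.31), a stress-induced bZIP factor, ID2 (-2.02 ± 0.33), an inhibitor of basic helix-loop-helix factors, and HEY1 (-0.93 ± 0.19), a Notch target. Of 31 forkhead, SOX and TGF-beta pathway factors, 12 were higher (38.7%) and 3 lower (9.68%), with a median of 0.86. The lower count was 1 without manganese input 3 or IP 3, and 6 with total counts. Their median transcript length was 148, against 69.8 for all genes in the same relative units. Over all genes the share higher rose with length, from 5.94% in the shortest decile to 25.9% in the longest. FOXK2 had 16.1, 12.6 and 11.1 CPM in the inputs and 74.2, 67.5 and 80.0 in the IPs, higher by 2.48 ± 0.21. FOXO1 (1.12) and SMAD3 (1.13) were also higher, while SMAD5 was lower (-1.65). SMAD3 did not pass with limma on TPM (0.0594).

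Of 46 histone methyltransferases and demethylases, 18 were higher and 6 lower (median 0.41), with 10 lower without control IP 3. KMT2A (ENSG00000118058), the H3K4 methyltransferase MLL1, had 49.0, 49.1 and 55.5 CPM in manganese input 1 to 3 and 213, 238 and 251 CPM in manganese IP 1 to 3. The IP libraries were all several times the inputs, by 2.19 ± 0.21 (edgeR, adjusted p = 1.19e-05). SUV39H1, an H3K9 methyltransferase, had 10.7, 13.9 and 12.2 CPM in the inputs and 61.8, 74.3 and 92.1 in the IPs, higher by 2.63 ± 0.22. KDM5A, an H3K4 demethylase, was higher by 1.71 ± 0.19. The demethylases KDM1B (-1.73) and KDM6A (-1.60) and the methyltransferase SETD7 (-1.17) were lower. KDM6A lost its call with the length correction (edgeR, 0.0869) and with limma on TPM (0.0796). With limma on TPM 10 members of this list were higher in place of 18. Of 27 HOX cluster genes, 6 were higher (22.2% against 14.8% of all genes) and 0 lower (median 0.52), HOXD9 by 2.16 and HOXD10 by 1.73 among them.

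Genes whose symbol starts with ZNF, mostly zinc finger transcription factors, had 93 of 413 tested members higher and 44 lower, with a median of 0.21. That is 22.5% and 10.7%, against 14.8% and 17.6% of all genes. Set against the mean of the 3 inputs, as log2 of CPM + 0.5, their median was 0.296, 0.205 and 0 in manganese IP 1 to 3. ZNF462 had 23.2, 23.8 and 22.8 CPM in the inputs and 94.5, 110.5 and 129.7 in the IPs, higher by 2.26 ± 0.20. ZNF263 was higher by 2.36 ± 0.22. ZNF770 had 79.8, 77.6 and 72.1 CPM in the inputs and 8.65, 7.09 and 6.60 in the IPs, lower at -3.36 ± 0.55, and ZNF367 was lower at -2.56 ± 0.36. With limma on TPM, 46 were higher and 38 lower and the median was -0.03.

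Splicing factor mRNAs also had more higher than lower members, 17 against 7 of 51 tested, with a median of 0.16 that was -0.19 with limma on TPM. The higher ones included SF3B2 (1.36), a subunit of the U2 particle, U2AF2 (1.38), which binds the polypyrimidine tract, and PRPF19 (1.32), an ubiquitin ligase of the spliceosome. U2AF2 had 108, 99.3 and 88.8 CPM in the inputs and 251, 269 and 253 in the IPs. TRA2B (-1.12), a splicing activator, and SF3B1 (-0.64), the U2 subunit at the branch point, were lower, SF3B1 not so with the length correction (-0.22, edgeR, adjusted p = 0.416). The lower count was 2, 4 and 3 without manganese input 1, input 2 and IP 2, 12 without control IP 3, and 11 in the fit of the manganese libraries alone.

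**Figure D3:**
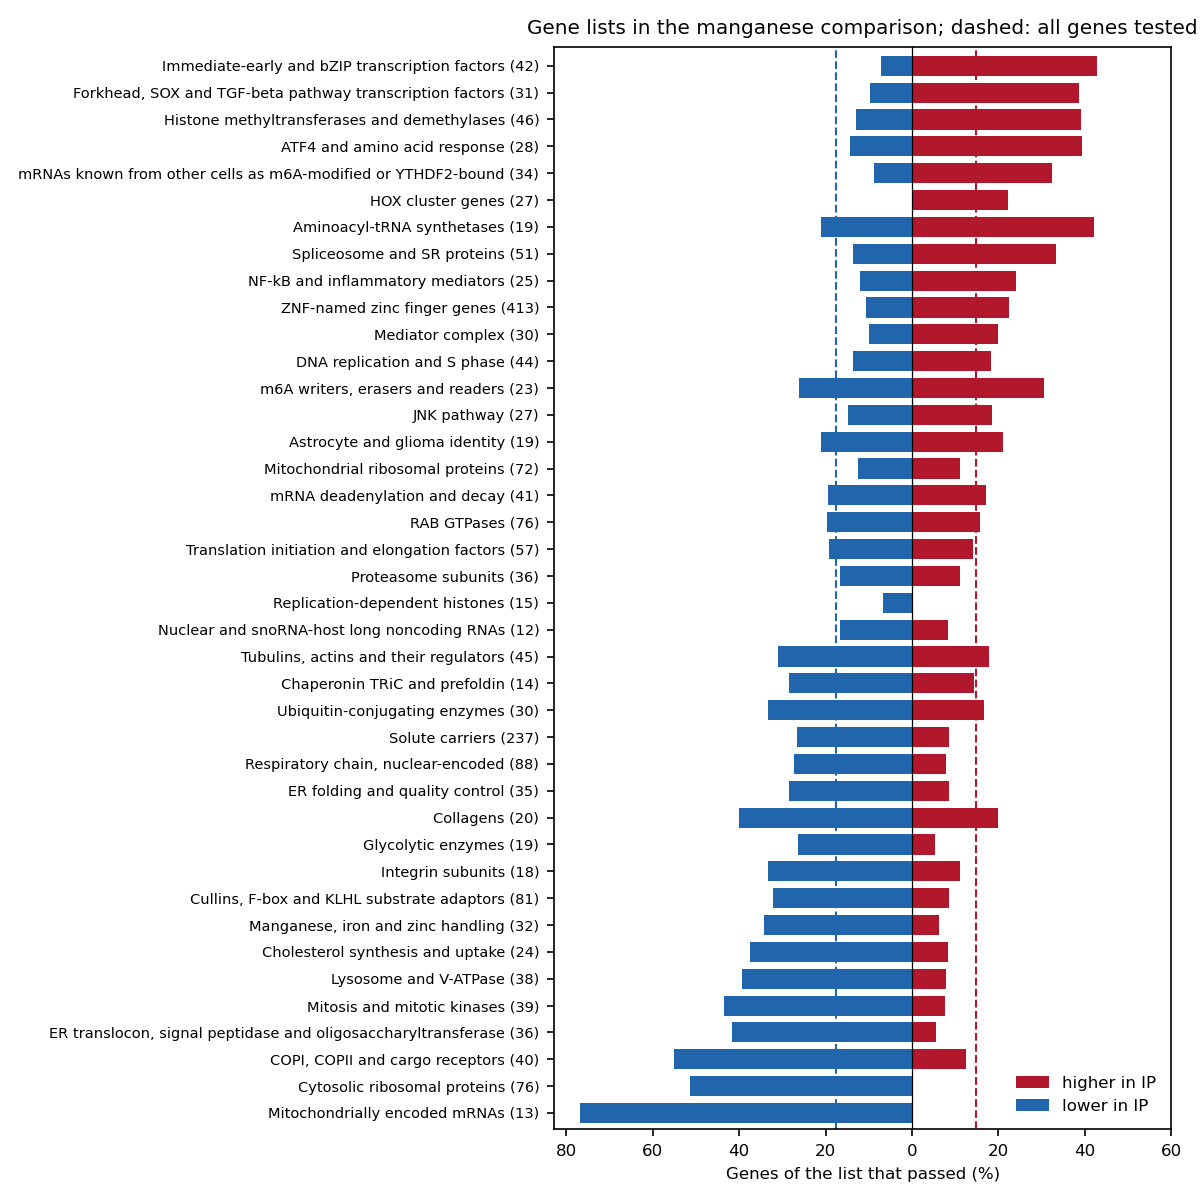
For each gene list with 12 or more tested genes (number in brackets), bars show the percent of tested genes that passed as higher in the manganese IP (right, red) or lower (left, blue). Dashed lines mark all genes tested, 14.8% higher and 17.6% lower; the mitochondrially encoded mRNAs (10 of 13 lower) and the COPI and COPII list (22 of 40 lower) reach farthest left.

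mRNAs of the secretory pathway had more lower than higher members. Of 40 tested COPI, COPII and cargo receptor mRNAs, 22 were lower and 5 higher (median -0.72). TMED2 (ENSG00000086598), a p24 cargo receptor, had 609.6, 666 and 681 CPM in manganese input 1 to 3 and 88.4, 81.9 and 82.7 CPM in manganese IP 1 to 3. Its IP libraries all lay far below the inputs, at -2.95 ± 0.18 on the log2 scale (edgeR, adjusted p = 1.56e-06). TMED7, of the same family, was lower at -2.56 ± 0.21 and ARCN1, the delta subunit of COPI, at -2.23 ± 0.20. TMED9 and the lectin LMAN2 went the other way. TMED9 had 104, 108 and 96.6 CPM in the inputs and 173, 169.6 and 188 in the IPs, higher by 0.78 ± 0.18, and LMAN2 was higher by 0.92 ± 0.22, not so with limma on TPM (0.0619). The count of higher members was 3 on leaving out any manganese or control input or manganese IP 3.

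Of 36 tested genes of the ER translocon, signal peptidase and oligosaccharyltransferase, 15 were lower and 2 higher (median -0.60), with 1 higher without manganese input 1, input 2, IP 1 or IP 3 or control input 2 or IP 2. Besides TRAM1, SEC61A1, the channel subunit, had 229, 206 and 238 CPM in the inputs and 28.7, 20.9 and 14.7 in the IPs, lower at -3.39 ± 0.33 (edgeR, adjusted p = 1.55e-05). OST4, a small subunit of the oligosaccharyltransferase, was lower at -1.79 ± 0.22. SRP14, a protein of the signal recognition particle, was higher by 1.87 ± 0.21, with 115, 112 and 137 CPM in the inputs and 445, 454 and 436 in the IPs. In the fit of the manganese libraries alone 23 were lower and 5 higher. Of 35 ER folding and quality control genes, 10 were lower and 3 higher (median -0.34), and 17 were lower with limma on TPM. The lower ones included the thioredoxin-like TXNDC5 (-2.93), the calcium-binding protein CALU (-1.61) and the mannosidase-like EDEM3 (-2.56). P4HB, a protein disulfide isomerase, had 139, 135 and 257 CPM in the inputs and 818, 867 and 1134 in the IPs, higher by 2.41 ± 0.32, and the chaperone HYOU1 was higher by 0.95 ± 0.14.

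The lysosome and V-ATPase list had 15 of 38 tested genes lower and 3 higher (5 without control IP 1 or IP 3), with a median of -0.14. GLB1, the lysosomal beta-galactosidase, was lower at -2.74 ± 0.23. PSAP, the precursor of the saposins, was lower at -1.12 ± 0.17, but with the length correction not so (-0.13, edgeR, adjusted p = 0.566). CTSB, the protease cathepsin B, was higher by 1.31 ± 0.24. Of 24 cholesterol synthesis and uptake genes, 9 were lower and 2 higher (median -0.45), with 1 higher without manganese input 1, input 3 or IP 2. HMGCS1, which makes the precursor of mevalonate, had 23.1, 24.1 and 26.8 CPM in the inputs and 4.36, 1.102 and 1.67 in the IPs, lower at -3.36 ± 0.45, and CYP51A1, a sterol demethylase, was lower at -2.63 ± 0.17. Of 20 collagens, 8 were lower and 4 higher (median -0.59), 3 and 5 with the length correction. The lower count was 3 to 5 without any 1 of the manganese libraries or control input 2, and the higher count 2 without any manganese input or manganese IP 2 or 3. COL6A1 was higher by 0.97 ± 0.19, while COL1A2 was lower at -0.69 ± 0.15, a call lost with that correction (-0.07, edgeR, adjusted p = 0.849). Of 18 integrin subunits, 6 were lower and 2 higher (median -0.55), 2 and 2 with the length correction, and 3 were lower without manganese IP 2. The higher count was 0 without manganese input 1 or with total counts, and 1 without manganese input 2, input 3 or IP 3. ITGAV, a subunit of vitronectin receptors, had 136, 131 and 165 CPM in the inputs and 18.4, 13.2 and 26.6 in the IPs, lower at -2.89 ± 0.64.

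Of the mRNAs for 76 cytosolic ribosomal proteins, 39 passed as lower in the manganese IP and 0 as higher, with a median of -0.80 and a range of -2.15 to 0.67. RPLP1 (ENSG00000137818), a protein of the ribosomal stalk, had 491, 489 and 340.1 CPM in manganese input 1 to 3 and 105, 108 and 135 CPM in manganese IP 1 to 3. All IP libraries were below all inputs, at -1.92 ± 0.22 (edgeR, adjusted p = 4.08e-05). RPL9 was lower at -1.90 ± 0.25 and RPL27 at -1.85 ± 0.25. The count of lower members ran from 28 to 56 on leaving out 1 library at a time, with 0 to 2 higher. These short mRNAs have many processed pseudogenes to which reads can be assigned. Of 13 mRNAs encoded by mitochondrial DNA, 10 passed as lower and 0 as higher (median -1.29), MT-ND4L at -2.26 ± 0.32. DESeq2 and limma on TPM each called 1 of them higher.

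Of 88 nuclear-encoded respiratory chain genes, 24 were lower and 7 higher (median -0.51). Without control IP 3, 37 were lower and 13 higher, and without manganese input 1, 4 were higher. NDUFA4 had 122, 128 and 118 CPM in the inputs and 36.6, 32.3 and 35.9 in the IPs, lower at -1.81 ± 0.20. Mitochondrial ribosomal protein mRNAs were near the background, with 8 of 72 higher and 9 lower and a median of -0.09 whose sign turned under the 1 CPM filter (0.04) and the length correction (0.01); 15 were lower without control IP 3. Of 19 aminoacyl-tRNA synthetases, 8 were higher (42.1%) and 4 lower (21.1%), with a median of 0.30. With limma on TPM 7 were lower and the median was -0.04. AARS, EPRS and CARS, which charge tRNAs with alanine, with glutamate and proline, and with cysteine, were higher by 1.24, 1.57 and 1.43. IARS, TARS and RARS, for isoleucine, threonine and arginine, were lower by log2 values of -1.93, -1.59 and -2.41. Of 57 initiation and elongation factors, 8 were higher (14.0% against 14.8% of all genes) and 11 lower (19.3% against 17.6%), with a median of -0.16. EIF4G1, the scaffold of cap-dependent initiation, had 363, 343 and 364 CPM in the inputs and 1102, 1088 and 1116 in the IPs, higher by 1.63 ± 0.18. EIF4G2, its relative that does not bind the cap-binding protein, was lower at -1.02 ± 0.17, not so with the length correction (-0.29, edgeR, adjusted p = 0.382). Higher and lower counts were 5 and 21 with limma on TPM 14 and 17 in the manganese libraries alone, and 13 and 19 without control IP 3; 5 were higher without manganese input 2.

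Of 39 mitosis genes, 17 were lower and 3 higher (median -0.54), with 1 higher without manganese input 1 or 2 or IP 3. CDK1 (ENSG00000170312), the kinase that drives entry into mitosis, had 58.0, 57.1 and 62.5 CPM in manganese input 1 to 3 and 9.51, 6.18 and 7.002 CPM in manganese IP 1 to 3. The groups were far apart, at -2.97 ± 0.20 (edgeR, adjusted p = 1.65e-06). NUSAP1, a spindle protein, was lower at -1.75 ± 0.19 and ECT2, which sets up the cleavage furrow, at -1.87 ± 0.16. CDC25B, a phosphatase that activates CDK1, was higher by 1.60 ± 0.21. With the length correction 11 were lower and 5 higher. Of 44 DNA replication genes, 8 were higher (18.2% against 14.8% of all genes) and 6 lower (13.6% against 17.6%), with 10 lower without control IP 3. Their median was 0.01, with a sign that turned under total counts (-0.14). MCM4, a subunit of the replicative helicase, had 104, 102 and 104 CPM in the inputs and 306, 359 and 388 in the IPs, higher by 1.76 ± 0.20, and FEN1, the flap endonuclease, was higher by 1.90 ± 0.23.

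Cytoskeletal mRNAs had 8 of 45 tested members higher (17.8% against 14.8% of all genes) and 14 lower (31.1% against 17.6%), with a median of -0.14. STMN1, which sequesters tubulin, was higher by 1.73 ± 0.25, and MYH9, nonmuscle myosin, by 1.09 ± 0.14, not so with limma on TPM (0.0810). The tropomyosin TPM3 was lower at -1.95 ± 0.18 and ACTR3, a subunit of the Arp2/3 complex, at -1.35 ± 0.14. With the length correction 13 were higher and 14 lower, 13 were higher without control IP 3 and 5 without manganese input 3. Of 81 cullin, F-box and KLHL genes of ubiquitin ligases, 7 were higher and 26 lower (median -0.38), 17 lower without manganese input 2.

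In groups tied to the exposure, genes of manganese, iron and zinc handling had 2 of 32 tested members higher and 11 lower. That is 6.25% and 34.4%, against 14.8% and 17.6% of all genes, with a median of -0.33. SOD2 (ENSG00000112096), the mitochondrial superoxide dismutase that needs manganese, had 273, 261 and 257 CPM in manganese input 1 to 3 and 102, 91.9 and 78.4 CPM in manganese IP 1 to 3. Every IP library was below every input, at -1.54 ± 0.14 (edgeR, adjusted p = 9.01e-06). The zinc transporters SLC30A5 (-2.20) and SLC39A10 (-1.60) were lower as well. MTF1, the transcription factor that senses zinc, was higher by 1.31 ± 0.23, and HFE, a regulator of iron uptake, by 1.24 ± 0.28, which was lost with the length correction (0.31, edgeR, adjusted p = 0.378). Of 28 ATF4 and amino acid response genes, 11 were higher (39.3%) and 4 lower (14.3%), 7 lower without control IP 3. Their median was 0.19, and -0.0011 with limma on TPM. DDIT4, an inhibitor of mTORC1, had 353, 362 and 348 CPM in the inputs and 841, 877 and 912 in the IPs, higher by 1.31 ± 0.15, and SLC1A5, a glutamine transporter, was higher by 1.53 ± 0.18. SLC38A2, another neutral amino acid transporter, had 71.0, 63.5 and 65.2 CPM in the inputs and 4.28, 4.89 and 5.42 in the IPs, lower at -3.77 ± 0.59. Of 25 NF-kB and inflammatory genes, 6 were higher (24%) and 3 lower (12%), with a median of 0.44. With limma on TPM 6 were lower, and leaving out 1 library at a time gave 4 to 8 higher. The chemokine CCL2 (2.02) and the cytokine CSF1 (1.45) were higher, and the NF-kB subunit RELA (-1.47) and the kinase CHUK (-2.29) lower.

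Of 19 tested astrocyte and glioma markers, 4 were higher and 4 lower (21.1% each, against 14.8% and 17.6% of all genes), with a median of -0.08. This even split depended on the processing. With limma on TPM 2 were higher and 8 lower. The higher count was 2 with the length correction, and the lower count 7 in the manganese libraries alone. GFAP (ENSG00000131095), the intermediate filament of astrocytes, had 204, 227 and 212 CPM in manganese input 1 to 3 and 515, 665 and 708 CPM in manganese IP 1 to 3. The IP libraries lay clear above the inputs, by 1.55 ± 0.19 (edgeR, adjusted p = 5.15e-05). TNC, the matrix glycoprotein tenascin C, had 175, 172 and 198 CPM in the inputs and 44.6, 23.2 and 32.8 in the IPs, lower at -2.43 ± 0.36, and GJA1, connexin 43, was lower at -1.30 ± 0.31.

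In control cells, 2543 genes were higher in the IP (17.2%) and 2096 lower (14.2%) by the same test. The manganese and control enrichments share no library, although they share the fit and its scaling. The 1302 genes higher in both were 59.5% of those higher in manganese and 51.2% of those higher in control cells. The 824 genes lower in both were 31.6% of the lower genes of manganese and 39.3% of those of control cells. A further 99 genes were higher in manganese and lower in control cells, and 108 the reverse. Genes higher in the manganese IP had a median log2 value of 1.2 there and 1.02 in control cells. Genes lower in the manganese IP had -1.44 there and -0.53 in control cells; both manganese medians were fixed by the choice of genes. Without control IP 3 and manganese IP 3 the manganese comparison had 2654 higher and 3005 lower genes, an alternative added after the data were seen.

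The difference between the 2 enrichments, tested itself, passed for 1028 genes in which manganese was the higher (6.94%) and 1503 in which it was the lower (10.2%). Leaving out 1 library at a time gave 675 to 1496 and 771 to 2269: the first was 675, 682 and 684 without control input 2, control input 3 and manganese input 3, and the second 2269 without control IP 3 and 771 to 972 without control input 2 or 3, any manganese input or manganese IP 3. Among genes with opposite calls, KRT81, a hair keratin, had 208, 177 and 138 CPM in manganese input 1 to 3 and 327, 328 and 449.9 CPM in manganese IP 1 to 3, and 118, 114 and 128 CPM in control input 1 to 3 and 27.3, 44.6 and 36.6 CPM in control IP 1 to 3. It was higher in the manganese IP (1.08 ± 0.21) and lower in the control IP (-1.73 ± 0.22), a difference of 2.81 ± 0.30 (edgeR, adjusted p = 0.00128). JUP, the junction protein plakoglobin, had 1.40 ± 0.18 in manganese and -1.07 ± 0.18 in control cells, a difference of 2.47 ± 0.25. DMAP1, a subunit of a histone acetyltransferase complex, differed by 3.29 ± 0.40, and the RNA-binding protein RALY by 1.84 ± 0.24. In the other direction SDCBP, the adaptor syntenin, had 167, 169 and 159 CPM in the inputs and 87.4, 76.3 and 50.1 in the IPs in manganese cells. Its log2 values were -1.21 ± 0.20 in manganese and 1.00 ± 0.20 in control cells, a difference of -2.21 ± 0.28. The ubiquitin ligase adaptors KLHL9 and FEM1C went from 1.19 and 0.98 in control cells to -0.71 and -0.90 in manganese cells. PCNX4, MAPK6, an atypical MAP kinase, and WDR26 also had opposite calls, with differences of -1.86, -1.61 and -1.57, but in manganese cells PCNX4 and WDR26 did not pass with the length correction (-0.34 and -0.13).

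Other genes passed in manganese and not in control cells, with a difference that passed. GIGYF1 had 9.75, 7.57 and 6.91 CPM in control input 1 to 3 and 10.7, 14.0 and 11.5 CPM in control IP 1 to 3. Its control value of 0.58 ± 0.23 did not pass, and the difference was 2.51 ± 0.32 (edgeR, adjusted p = 0.00128). ARRDC3, an arrestin that guides receptor sorting, was at -1.60 ± 0.13 in manganese and 0.08 ± 0.13 in control cells, a difference of -1.68 ± 0.18. LGR4, a receptor of R-spondins, was at -2.24 ± 0.21 and 0.16 ± 0.20, a difference of -2.40 ± 0.28. GFAP was at -0.06 ± 0.18 in control cells, with 1517, 1835 and 1850.3 CPM in control input 1 to 3 and 1567, 2064 and 1373 CPM in control IP 1 to 3. The groups overlapped there, and the difference was 1.61 ± 0.26 (edgeR, adjusted p = 0.00198). MAP2K4, which did not pass in manganese cells, had 75.2, 77.4 and 80.2 CPM in control input 1 to 3 and 271, 269 and 254 CPM in control IP 1 to 3. It was higher in the control IP by 1.77 ± 0.18, and the difference of -1.48 ± 0.25 passed (edgeR, adjusted p = 0.00245). JUN, at 1.41 ± 0.18 in control cells, had a difference of 0.11 ± 0.25 that did not pass (edgeR, adjusted p = 0.818) and changed sign without control IP 3 (-0.08).

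By group, the cytosolic ribosomal protein mRNAs had a median of -2.08 in control cells against -0.80 in manganese cells. The difference passed in 33 of 76, all with manganese the higher, and in 27 to 61 on leaving out 1 control library, 61 without control IP 3. ZNF-named genes had a median of 0.92 in control cells against 0.21. Their differences were 9 higher and 100 lower in manganese (66 and 63 lower without control input 2 and input 3). The median transcript length was 112 for ZNF-named genes and 18.4 for ribosomal protein mRNAs, against 69.8 for all genes. Over all genes the median difference was 0.33 in the shortest decile of length and -0.63 in the longest. Whether length accounts for these 2 group differences was not tested. The cullin, F-box and KLHL genes were at 0.19 in control and -0.38 in manganese cells, with 3 higher and 22 lower (14 and 12 lower without control input 2 and input 3). The control medians of the ER lists depended on control IP 3. The translocon list was at -0.59 in control cells, and at -0.40 without that library, against -0.60 in manganese cells; 5 differences were lower with it and 11 without it. ER folding was at -0.33 in control cells, -0.22 without control IP 3 and -0.52 without control input 3, against -0.34 in manganese cells.

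**Figure D4:**
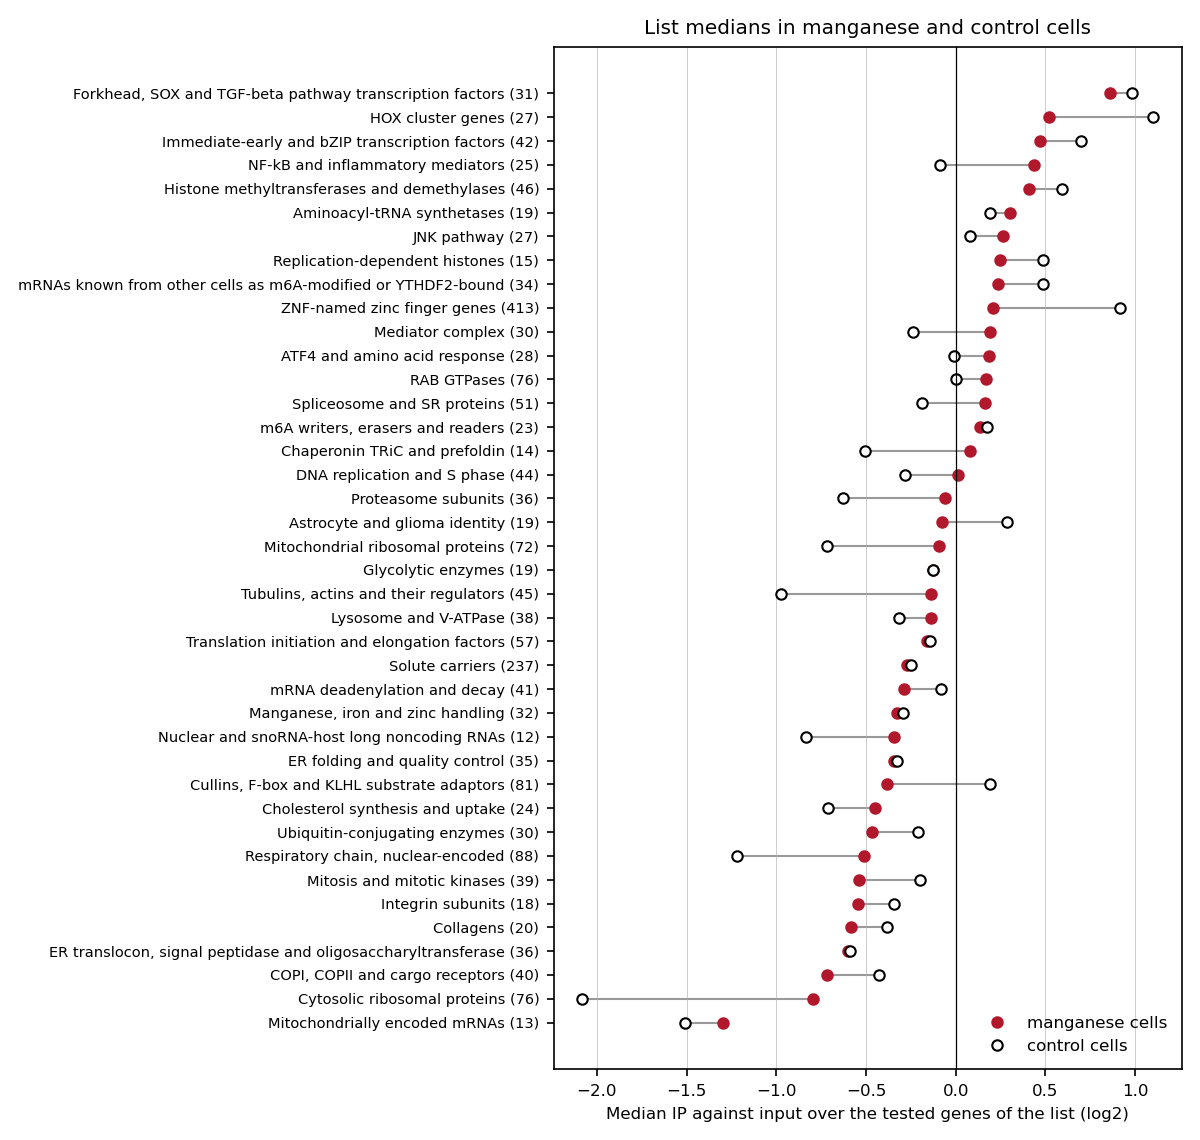
Filled red points are the median log2 difference between IP and input over the tested genes of each list in manganese cells, and open points the same in control cells, with the number of genes in brackets. Cytosolic ribosomal proteins (-2.08 against -0.80) and ZNF-named genes (0.92 against 0.21) were farther from 0 in control cells. The control median of the translocon list (-0.59) was -0.40 without control IP 3.

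Transcript length, estimated for each gene from its counts and TPM and given relative to the median gene, went with enrichment, given here as a description across genes. In the shortest decile (median length 0.22 of the median gene) the median log2 value in manganese cells was -0.39, with 5.94% of genes higher in the IP and 19.4% lower. In the longest decile (3.61) it was 0.22, with 25.9% higher and 16.4% lower. The share of lower genes lay between 14.9% and 20.5% over the deciles. In control cells the medians ran from -0.78 to 0.68 over the same deciles. By mean CPM of the manganese libraries, genes of the lowest decile passed as higher in 0.675% and as lower in 3.44%, and genes of the highest decile in 32.1% and 23.8%. With the length correction, which uses the change of a gene's effective length between libraries and leaves its mean length in place, 2078 genes were higher and 2189 lower in manganese cells, and 3718 of the 4795 passing genes passed in the same direction.

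**Figure D5:**
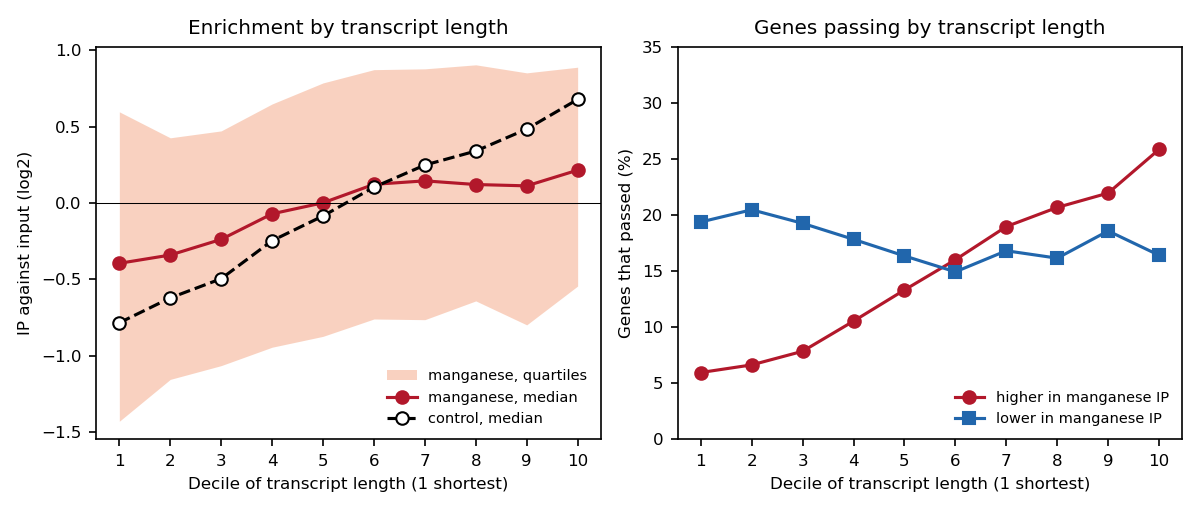
Left, the median log2 difference between IP and input by decile of transcript length (1 shortest) in manganese cells (red, with the band between quartiles) and control cells (open points). Right, the percent of genes that passed in manganese cells; the share higher ran from 5.94% to 25.9% and the share lower lay between 14.9% and 20.5%.

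At the extreme, 91 genes that passed were at 0 in the 3 manganese IP libraries and 23 at 0 in the 3 inputs. Their folds are lower bounds, computed with 3 counts over the 3 libraries as the floor of the fraction at 0, and cover counting error only. OGFOD1 (ENSG00000087263), a prolyl hydroxylase of a ribosomal protein, had 38.0, 38.2 and 28.4 CPM in the inputs and 0, 0 and 0 in the IPs and was at least 783-fold lower. UPF1 (ENSG00000005007), the helicase of nonsense-mediated decay, had 24.3, 21.5 and 4.88 CPM in the inputs and 0, 0 and 0 in the IPs, at least 379-fold lower, although input 3 was far below the other inputs. In control cells the same genes were detected in every IP library, OGFOD1 at 4.94, 8.30 and 25.4 CPM. AKAP8L, at 0 in the inputs, had 31.5, 24.2 and 27.7 CPM in the IPs, at least 592-fold higher. The readthrough gene NDUFC2-KCTD14 was at least 264-fold lower, while NDUFC2, which it shares sequence with, was higher by 1.47 ± 0.27. Whether reads of these genes were assigned to others in a fraction was not tested.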

How the data were processed

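The authors deposited, per gene and library, estimated counts rounded to whole numbers and TPM, a unit scaled by transcript length and library total, and a summary with the fragment counts sequenced and the percent aligned. The submitters' processing notes name kallisto and hg19, with versions not given in the sources used here. The deposited names cover 35185 of 36963 genes. A further 27 names turned into dates were restored from a reference table of gene names, and 1751 genes had none.

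Genes with a count of at least 10 in a group's number of libraries and 15 in all (filterByExpr) were tested with edgeR 4.0.16 in R 4.3.3, in 1 quasi-likelihood fit of all 12 libraries with a mean per group (8 residual degrees of freedom), TMM factors and Benjamini-Hochberg adjustment over 14804 genes at 0.05. The steps were tested on simulated data. CPM values are counts scaled by the TMM-adjusted library total, fold values are log2 and carry their standard error after ±, and CPM means carry the SD of 3 libraries. Library totals were 16683984 to 28425552 counts. Transcript length is the ratio of counts to TPM.

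Genes were named by a rule: passing, at least 5 CPM, separate libraries and a plain symbol, then the 15 largest changes, the 8 of highest input CPM, the 3 of smallest p in each list, the 8 of smallest p and 6 with opposite calls for the difference from control, and up to 6 at 0 in a fraction, in each direction. JUN, MAP2K4, MAPK8, MAPK9 and YTHDF2 were named in any case. Members and the 43 lists were chosen with earlier results of these data known, and lists are described by counts and medians. Alternatives were RLE or no factors, scaling without PCGF6, other filters, DESeq2 1.42.0, limma 3.58.1 on log2(TPM + 1), a length offset, the libraries of 1 treatment, a replicate block, each library left out, and, chosen after seeing the data, manganese IP 3 and control IP 3 left out together. Some genes that the rule names are not reported here. Transcript tables were not used, and a description by protein features was not made.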

Additional observations from a re-analysis of the deposited data

Results flagged for a closer look

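A result is listed here because the enrichment itself, IP against input, differed between manganese and control cells in edgeR's quasi-likelihood test of that difference (Benjamini-Hochberg adjusted p under 0.05). The background is 1028 genes with manganese the higher (6.94%) and 1503 with manganese the lower (10.2%) of 14804 tested. Genes of the text were named in part for a small p of this difference or for opposite calls. The number of genes listed here therefore cannot be set against that background. All values are the manganese minus the control enrichment on the log2 scale. No outlier test was run within groups, which hold 3 libraries each.

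Of the named genes of the secretory pathway and ER, 8 had the lower enrichment in manganese. The values were -3.02 for SEC23A, -2.27 for TMED7, -1.43 for SEC61A1, -1.34 for TRAM1, -1.22 for CALU, -2.17 for EDEM3, -0.87 for TXNDC5 and -4.33 for MANEA. TMED9 (1.52), LMAN2 (2.14), P4HB (2.14) and HYOU1 (0.62) were higher. In lipid synthesis and the lysosome, HMGCS1 (-2.96), CYP51A1 (-0.87) and GLB1 (-1.09) were lower. Of matrix, junction and cytoskeleton genes, COL6A1 (0.92), NES (0.85), GFAP (1.61), JUP (2.47) and KRT81 (2.81) were higher, and TNC (-2.21), GJA1 (-2.19), ACTR3 (-0.85) and SDCBP (-2.21) lower.

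The RNA-binding and decay factors TNKS1BP1 (1.57), GIGYF1 (2.51), RALY (1.84), U2AF2 (1.86), SF3B2 (0.79) and PRPF19 (1.40) were higher in manganese, and so was the demethylase ALKBH5 (0.70). DDX6 (-1.41), SF3B1 (-1.37), FTO (-1.65), YTHDF2 (-0.78) and MAT2A (-0.80) were lower. Of the translation genes, RPLP1 (2.20), RPL27 (1.46) and CARS (0.77) were higher and EIF4G2 (-1.25) and IARS (-1.88) lower.

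Of the kinases and signalling genes, MAP3K11 (2.02) was higher, and MAP2K4 (-1.48), MAP3K5 (-1.75), MAPK6 (-1.61), CHUK (-2.84), LGR4 (-2.40), ARRDC3 (-1.68) and CDK1 (-1.61) were lower. Of the transcription and chromatin factors, DMAP1 (3.29) was higher and BHLHE40 (-0.62), HEY1 (-1.38), FOXO1 (-0.88), SMAD3 (-0.60), SMAD5 (-1.36), KDM6A (-2.25), SETD7 (-1.25), ZNF367 (-1.62) and ZNF770 (-2.40) lower. The mitosis genes ECT2 (-1.49) and NUSAP1 (-0.87) and the ubiquitin ligase and conjugating genes KLHL9 (-1.90), FEM1C (-1.88), WDR26 (-1.57) and UBE2D1 (-3.05) were lower too.

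In metal handling SOD2 (-1.36), SLC30A5 (-1.57) and SLC39A10 (-1.77) were lower. Among the rest, GAPDH (1.27), PSMD4 (1.03), the mitochondrial glutamate carrier gene SLC25A22 (3.24) and NBPF20 (1.43), a gene with near-identical copies, were higher, and RAB18 (-1.98), PCNX4 (-1.86) and TCP11L2 (-2.85) lower. OGFOD1 (-11.06) and UPF1 (-11.50) were at 0 in all 3 manganese IP libraries, so their values depend on the prior count and are no estimate of size.

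For 25 of these genes the difference no longer passed on leaving out 1 library or another, with adjusted p (edgeR) up to 0.158. BHLHE40 and SMAD3 did not pass in 11 of the 12 such fits, TXNDC5 and ZNF770 in 9, DDX6, NBPF20, NUSAP1, TRAM1 and ZNF367 in 8, CYP51A1 and SEC61A1 in 7, HYOU1 and YTHDF2 in 6 and FTO in 5. COL6A1, GLB1, MAT2A, PSMD4 and SETD7 did not pass in 4, CARS, SF3B2 and TCP11L2 in 3, ALKBH5 and NES in 2 and FOXO1 in 1. Control input 3 ended 22 of these calls, control input 2 20 and manganese input 3 18, while control IP 3 ended 0. Of the genes that passed in all 12, ACTR3, EDEM3, EIF4G2, HMGCS1, KDM6A, MANEA, MAP3K5, OGFOD1, SEC23A, SLC39A10, SMAD5 and UPF1 did not pass with limma on log2(TPM + 1) (adjusted p of 0.0577 to 0.355), where MAP3K5 was at -0.59. ACTR3, EDEM3, EIF4G2 and HMGCS1 also did not pass with the length correction (edgeR, adjusted p of 0.0569 to 0.219), where EIF4G2 was at -0.64.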

How the results depend on the processing

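The manganese counts stayed within 1.5 times of 2187 higher and 2608 lower under every setting tried. They were 2339 and 2470 with RLE factors, 1745 and 3056 with total counts, 2415 and 2367 with scaling without PCGF6, 2021 and 2743 without a filter, 2641 and 2298 with the 1 CPM filter, 2078 and 2189 with the length correction, 2917 and 3087 from the manganese libraries alone, 2652 and 2806 with DESeq2 and 1533 and 3077 with limma on log2(TPM + 1). Leaving out 1 library at a time gave 1689 to 2671 higher and 1923 to 3293 lower genes. In control cells 2543 higher genes became 1679 with total counts, 1560 with limma and 1636 from the control libraries alone, and 2096 lower genes became 3419 with limma and 3360 without manganese IP 3 and control IP 3. Leaving out 1 library gave 1910 to 3025 and 1572 to 2796 there. Of the passing control genes 54.8% were higher, against 35.6% with total counts and 31.3% with limma. For the difference between treatments, 1028 higher genes became 1644 without manganese IP 3 and control IP 3, and 1503 lower genes became 920 with the length correction and 670 with limma. Leaving out 1 library gave 675 to 1496 and 771 to 2269. The share with manganese the higher was 40.6%, and 55.6% with total counts, 59.7% with limma and 51.4% with the 1 CPM filter. Of 165 genes of the manganese comparison named in the text, 140 kept their direction and their side of the threshold under all alternatives, and of 78 named for the difference, 40 did. SPARC turned to -0.62 with the length correction and -0.91 with limma. YTHDF2 turned to -0.0162 with total counts and -0.0634 with limma, never past the threshold, and the difference of JUN, -0.0812 to 0.305 on leaving out 1 library, to -0.0812 without control IP 3 and -0.00805 without manganese IP 3 and control IP 3. RALY and NDUFC2 no longer passed with limma (adjusted p of 0.288 and 0.102). The cause was not tested for any of these.

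Replicate numbers are shared between inputs and IPs. The labels do not say that an IP and an input of the same number came from the same lysate, and same-numbered libraries did not deviate together in manganese cells (r of 0.01, -0.0037 and -0.0008 across genes; 0.127, 0.0009 and 0.0734 in control cells), so the numbers were not used as pairs. With a replicate block the counts were 1998 and 2477 in manganese, 2277 and 2057 in control cells and 936 and 1221 for the difference, and 4272 of the 4795 passing genes passed in the same direction. Of the genes named, ACTB did not pass with it in manganese cells (edgeR, adjusted p = 0.0544), nor did the differences of BHLHE40, HYOU1, NUSAP1, SEC61A1, SMAD3, TCP11L2, TRAM1, TXNDC5 and ZNF770 (0.0619 to 0.0991). The design has 3 libraries a group and no control antibody, and control IP 3 was the least deep by aligned fragments. Genes of low count passed least often, so a gene that did not pass is not shown to be equal in both fractions.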

Other observations

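Several groups with other roles were counted in the manganese comparison, against 14.8% of all genes higher and 17.6% lower. Of 237 tested solute carriers, the membrane transporters of small molecules, 20 were higher in the IP and 63 lower (median -0.27). Without manganese input 3 these were 13 and 40, and without manganese input 1, 13 were higher. SLC2A1, the glucose transporter GLUT1, had 431, 409 and 399.8 CPM in manganese input 1 to 3 and 107, 95.6 and 101 CPM in manganese IP 1 to 3. It was lower at -2.03 ± 0.23, and in control cells, where its input was at 50.3, 49.6 and 34.8 CPM, at -1.71 ± 0.24; the difference of -0.32 did not pass (edgeR, adjusted p = 0.554). SLC25A22, a mitochondrial glutamate carrier, had 6.16, 5.58 and 4.30 CPM in the inputs and 23.6, 34.7 and 32.4 in the IPs and was higher by 2.50 ± 0.41. Of 30 tested ubiquitin-conjugating enzymes, 5 were higher and 10 lower (median -0.47), and the higher count was 3 without manganese input 1 or 3, manganese IP 2 or control input 2 or 3 and 9 without control IP 3. UBE2D1 had 14.8, 18.9 and 14.7 CPM in the inputs and 0.700, 0.719 and 1.76 in the IPs, lower at -3.92 ± 0.41, while UBE2R2 was higher by 1.01 ± 0.21.

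Among vesicle traffic genes whose symbol starts with RAB, 12 of 76 were higher and 15 lower, with a median of 0.17 that was -0.125 with limma on TPM (6 higher, 25 lower). RAB18, a GTPase of lipid droplets and the ER, had 20.2, 19.6 and 22.8 CPM in the inputs and 2.64, 1.87 and 2.48 in the IPs, lower at -3.16 ± 0.24, and RABEP1, an effector of RAB5, was higher by 1.34 ± 0.15. Of 30 tested subunits of Mediator, the bridge between transcription factors and RNA polymerase II, 6 were higher and 3 lower (median 0.19, -0.05 with limma on TPM), with 8 lower without control IP 3. MED26 was higher by 1.88 ± 0.23 and MED1 lower at -2.99 ± 0.71. Of 36 proteasome subunits, 4 were higher and 6 lower (median -0.06, with a sign that turned under 3 settings); PSMD4 was higher by 1.05 ± 0.23 and PSMA1 lower at -1.34 ± 0.30. The proteasome counts were 8 higher without control IP 3 and 3 lower without manganese input 1, input 2 or IP 3. With limma on TPM 12 were lower. In the manganese libraries alone 8 were higher and 10 lower. Of 15 replication-dependent histones, whose mRNAs mostly lack a poly(A) tail, 0 were higher and 1 lower (0 lower without manganese input 1 or 2 or IP 1 or 3). Among genes annotated as long noncoding RNAs by RefSeq, 44 of 651 were higher and 24 lower, with a median of 0.26, against 1948 higher and 2447 lower of 12383 protein-coding genes (median -0.07). These classes were not matched for CPM, and genes of low CPM passed least often.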
